A study of Mus musculus with 4 samples.

Results

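The 8 genes Pitx1, Pitx3, Tbx4, Tbx5, Isl1, Lbx1, Meox2 and Lmx1b encode transcription factors known from the forming limb or from developing muscle. H3K27ac was described here at each of them in adult calf muscle. They were taken by gene symbol, 8 of 21644 protein-coding genes, and all 8 were found in the annotation of the mouse assembly mm10. H3K27ac, the acetylation of histone H3 at lysine 27, is found at active promoters and enhancers. Chromatin immunoprecipitation followed by sequencing had mapped it in the gastrocnemius, the large muscle of the calf, from adult female B6CASTF1/J mice, a hybrid strain, at the age of 2 months. There were 2 biological replicates, each a pool of 2 tissue samples, in 1 group, with no treatment, genotype or other muscle to compare. Each replicate had 2 technical libraries that shared 1 alignment, so n = 2. Peaks lie on the mm10 reference, with 1 value per region and no separation of the alleles of both parents.

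Limbs acquire their identity early in the embryo. Isl1 acts in the field from which the hindlimb grows, Pitx1 and Tbx4 are the hindlimb regulators, Tbx5 is their forelimb counterpart, and Lmx1b gives the limb its dorsal side. Muscle precursors then leave the somites and migrate into the limb bud, where Lbx1 is needed for their migration and Meox2 for the growth of limb muscle, while Pitx3 is known from differentiating muscle cells as well as from the lens and dopamine neurons. The gastrocnemius is a hindlimb muscle whose fibres descend from such migrating cells, and its connective tissue descends from the limb bud itself.

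A region is a peak of a deposited list, and the replicated list, which the authors made from both replicates, held 84452 of them. The lists of replicate 1 and replicate 2 held 70953 and 86937, and 63.3% of the replicated list's regions were shared with both. Both lists are of the type called pseudoreplicated, and sharing required an overlap of at least 50% of the shorter region. Read counts are not part of the lists, so library depth is unknown. Muscle is a mixture of cells, and fewer acetylated cells cannot be told apart from less acetylation per cell. In the replicated list all 8 fibre markers examined, Acta1 and Ckm among them, had a region at their start, and their median acetylated length was 9595.5 bp. The muscle connective tissue markers Pdgfra, Dcn, Col1a1, Col3a1 and Osr1 all had one as well, with 5713 to 9644 bp. Tcf4, also in that list, is left out because the fibroblast marker known by that name is the gene Tcf7l2, which was not listed. All 6 markers of tendon (median 2973 bp) and 4 of 5 of satellite cells, the muscle stem cells (1232 bp), had one too, while 0 of 5 of motor neurons did. Of the skin markers 2 of 4 had a region (median 1184 bp), Trp63 with 7389 bp and Krt10 with 2368 bp, while Krt5 and Krt14 were at 0. Of the bone and cartilage markers 2 of 6 had one (median 849 bp), Runx2 with 2347 bp and Sox9 with 2333 bp. Sp7 and Col2a1 had 1049 and 649 bp farther from their starts, and Acan and Bglap were at 0. The part of these cell types in the values below was not tested.

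Sequences before the starts of Meox2, Pitx3, Isl1 and Lmx1b are given first because they run from a fully acetylated start to one with no region, although all hold more CpG than the median promoter, CpG being the dinucleotide that marks many promoters. Each run is the 240 bases that end 10 bases before the RefSeq start (GRCm38.p6, the assembly of mm10), 5′ to 3′ on the gene's strand, with CpG in capitals. RefSeq promoters were matched for 5 of the 8 genes, among them Tbx4, and Pitx1, Tbx5 and Lbx1 had no entry.
Meox2, chr12:37108290-37108529, plus strand: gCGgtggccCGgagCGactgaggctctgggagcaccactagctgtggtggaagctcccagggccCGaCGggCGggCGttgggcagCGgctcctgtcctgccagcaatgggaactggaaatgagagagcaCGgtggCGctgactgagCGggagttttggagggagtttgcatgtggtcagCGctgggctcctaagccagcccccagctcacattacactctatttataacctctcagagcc
Pitx3, chr19:46148336-46148575, minus strand: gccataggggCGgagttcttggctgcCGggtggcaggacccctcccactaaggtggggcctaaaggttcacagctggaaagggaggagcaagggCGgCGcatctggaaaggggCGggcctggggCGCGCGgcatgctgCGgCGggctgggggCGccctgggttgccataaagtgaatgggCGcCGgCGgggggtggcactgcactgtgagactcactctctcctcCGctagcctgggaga
Isl1, chr13:116309699-116309938, minus strand: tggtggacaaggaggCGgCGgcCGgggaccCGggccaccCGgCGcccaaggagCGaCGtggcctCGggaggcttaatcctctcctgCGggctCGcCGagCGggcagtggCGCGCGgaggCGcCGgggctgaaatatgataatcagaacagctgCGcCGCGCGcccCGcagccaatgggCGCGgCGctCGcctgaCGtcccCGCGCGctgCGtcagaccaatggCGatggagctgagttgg
Lmx1b, chr2:33641109-33641348, minus strand: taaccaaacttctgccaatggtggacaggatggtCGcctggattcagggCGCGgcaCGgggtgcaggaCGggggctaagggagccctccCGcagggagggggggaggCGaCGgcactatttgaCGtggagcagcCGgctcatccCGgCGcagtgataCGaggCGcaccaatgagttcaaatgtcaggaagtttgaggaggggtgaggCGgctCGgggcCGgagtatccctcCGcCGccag
The Meox2 window held 12 CpG, the Pitx3 window 15, the Isl1 window 33 and the Lmx1b window 19, against a median of 5 over all RefSeq promoters in the table. In the replicated list, acetylated regions covered all 240 bases at Meox2 and at Pitx3, 89 bases at Isl1 and 0 bases at Lmx1b. In replicate 1 the Isl1 window was covered over 78 bases and in replicate 2 over 88, while the other windows did not change between the replicates. The window with the most CpG was therefore covered in part, and the second richest was bare.

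In the replicated list 6 of the 8 genes had an acetylated region within 1000 bp of a coding start, all except Tbx5 and Lmx1b, and over all protein-coding genes 61.2% had one. The same 6 genes had one in replicate 1 (all genes 58.9%) and in replicate 2 (all genes 61.1%), and so in both single lists, where the share over all genes was 58.6%. Over so few genes, 6 of 8 is near these levels. The genes also differed from one another in how much of the sequence around the start was acetylated. The acetylated length, the number of bases inside regions in the 10000 bp around the start (for a gene with several starts, the start with the most), ranged over the whole scale. Its median over the 8 genes was 1773.5 bp in the list from both replicates, 1212.5 bp in replicate 1 and 1192 bp in replicate 2, against 1469.5, 1184.5 and 1467 bp over all genes. The genes' own medians thus lay above that of all genes in the replicated list and in replicate 1 and below it in replicate 2. In the replicated list it was also lower with 2500 bp to each side, at 834 bp against 1340 bp over all genes, and from the 5′ ends of the gene models, at 572.5 bp against 1383 bp. The 8 genes as a group thus had no fixed side of the median of all genes.

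Lbx1 had 9918 bp in replicate 1 and 10000 bp in replicate 2, a mean of 9959 ± 58 bp (SD, n = 2). Meox2 had 9591 and 9829 bp, a mean of 9710 ± 168 bp. Both lay near the ceiling of the measure and above every other gene of the group in both replicates. Pitx3 followed with 3297 and 3652 bp (3474.5 ± 251 bp), and Pitx1 with 2071 and 1462 bp (1766.5 ± 431 bp). The replicates of these 4 genes did not overlap with those of the next gene in the order. Tbx4 had 289 and 922 bp, Isl1 354 and 360 bp, and Tbx5 0 and 355 bp. The ranges of these 3 genes overlapped. Within each replicate Tbx5 was the lowest of the 3, though close to Isl1 in replicate 2. Tbx4 and Isl1 changed places between the replicates, so their order cannot be read from 2 replicates. Lmx1b had 0 bp in both replicates. Among all genes of the replicated list, Lbx1 stood at the 99.8th percentile, Meox2 at the 99.4th, Pitx3 at the 79.3rd, Pitx1 at the 72.5th, Isl1 at the 39.3rd and Tbx4 at the 38.3rd. Pitx1 stood lower in the single lists, at the 68.7th percentile in replicate 1 and the 49.9th in replicate 2.

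**Figure D1:**
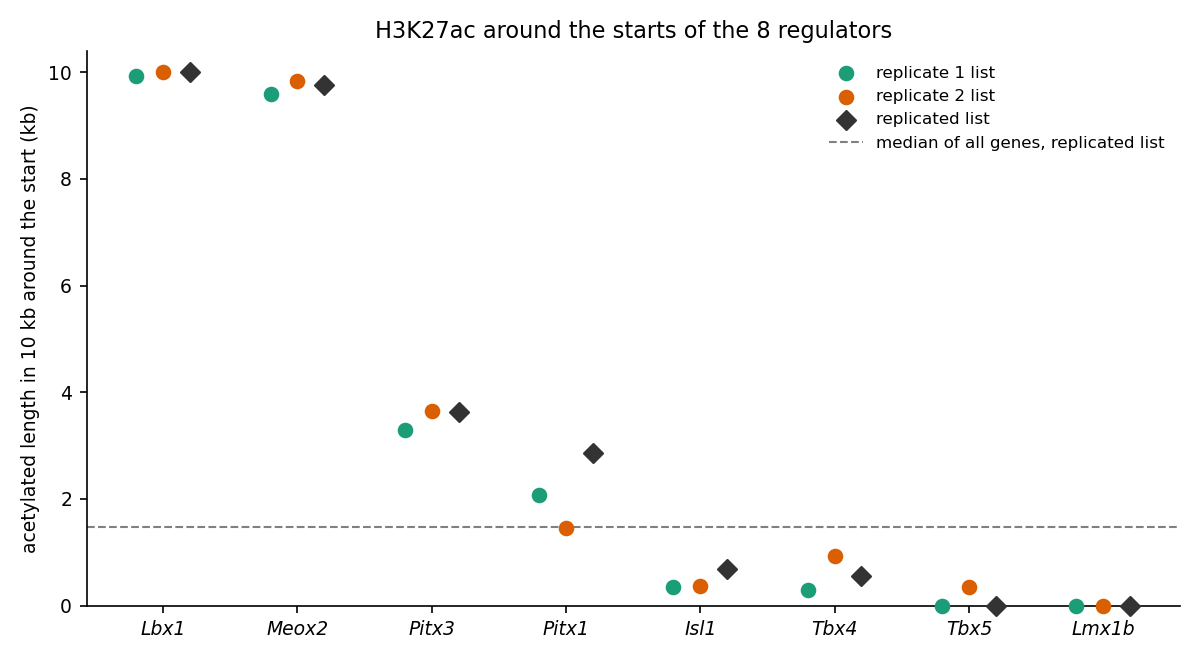
Acetylated length (kb) in the 10000 bp around the start of each gene, with circles for the lists of replicate 1 and replicate 2 and diamonds for the replicated list, and the median over all protein-coding genes as a dashed line. Lbx1 and Meox2 sit near 10000 bp in all 3 lists, Pitx3 lies above the line in all 3, and Isl1, Tbx4, Tbx5 and Lmx1b lie below it. Pitx1 lies above the line in replicate 1 and the replicated list and just below it in replicate 2.

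Lbx1, the homeodomain factor of migrating limb muscle precursors, lay wholly inside 1 region at chr19:45228778-45241715 on mm10. The region was 12938 bp wide, while the gene is 3129 bp long, and 212 of the 84452 regions were wider. Its signal value, the authors' own score of a peak, with no statement in the sources used here of what it is relative to, was 46.43 and at the 98.1st percentile of the list. The summit was 621 bp after the start, at 623 bp when replicate 1 was taken alone and at 618 bp for replicate 2. The region over the start was 9313 bp wide in replicate 1 and 12409 bp wide in replicate 2, and it took in the whole gene body in both. It reached farther upstream in replicate 2, where replicate 1 had a separate region.

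Meox2, the mesenchyme homeobox factor of limb muscle, had a region of 13712 bp at chr12:37104661-37118372, and 167 regions of the list were wider. It began before the start and ran into the gene, which is 70995 bp long. The region also lay within 1000 bp of a start of the noncoding gene Gm29007. Its signal value of 27.68 was at the 91.8th percentile, below that of Lbx1, so the wider of these regions had the lower value. The summit lay 312 bp before the start (replicated list) or 314 bp before it (replicate 1), but 856 bp after it in replicate 2. Replicate 1 split the domain into several regions, the one over the start 8915 bp wide, where replicate 2 had a single region of 13791 bp.

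Pitx3, the Pitx factor of differentiating muscle, had a region of 2365 bp at chr19:46146679-46149043 that spanned its start, with a signal value of 26.11 at the 91st percentile. The signal value was 15.87 in replicate 1 and 28.86 in replicate 2, each on its own list's scale. The acetylated length of 3630 bp was more than this region, because the start of the next gene, Gbf1, lies within the 5000 bp upstream and is acetylated too. Inside Pitx3 were 2 further regions, with summits 7.42 and 11.9 kb after the start and signal values of 14.8 and 24.44. The second also overlaps Elovl3, a fatty acid elongase gene, so it cannot be given to one of these genes.

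Pitx1, the hindlimb identity gene, had a weak mark at its start. Its region of 545 bp at chr13:55830660-55831204 had a signal value of 4.64, at the 48.7th percentile and so near the middle of the list, and values of 4.5 in replicate 1 and 4.03 in replicate 2. It lay after the coding start, and 0 bp were acetylated in the 5000 bp before that start in either replicate. Counted from the 5′ end of the gene model, which lies upstream of the coding start, no region was within 1000 bp and 13 bp were acetylated. The rest of its length came from 2 regions inside the gene, with signal values of 4.39 and 4.64. The one with 4.64 lay within 1000 bp of a start of the noncoding gene Gm47071.

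Tbx4, the hindlimb T-box factor, had a region of 458 bp at chr11:85886256-85886713, over the first of its 3 coding starts. Its signal value of 3.74 was at the 32.6th percentile. Replicate 1 held 289 bp there with a value of 3.79 and replicate 2 held 922 bp with a value of 3.58. The 559 bp given to Tbx4 in the replicated list are another region, inside the gene and before the last of its starts, with a value of 3.01, which replicate 1 did not hold. Tbx5, the forelimb T-box factor, had no region within 1000 bp of its start in any list. The 355 bp of replicate 2 came from 1 region upstream that neither replicate 1 nor the replicated list held. Tbx4 and Tbx5, the hindlimb and forelimb partners, thus both lay at the low end in this hindlimb muscle, and their ranges overlapped. Tbx4 nevertheless had a region at a start in every list, where Tbx5 had none, and its acetylated length was the greater within each replicate.

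Isl1, a LIM-homeodomain factor of the hindlimb field that also acts in motor neurons and heart, had 2 narrow regions at its start. The one upstream, chr13:116309850-116310215, was 366 bp wide with a signal value of 5.54 at the 58.1st percentile, and it was also present in replicate 1 (354 bp, 4.5) and replicate 2 (360 bp, 5.59). The other, chr13:116309309-116309629, was 321 bp wide with a value of 2.73 at the 7.28th percentile, and neither replicate's own list held it. Lmx1b, the LIM-homeodomain factor of the dorsal limb, had no region at its start and none inside its 79547 bp in the replicated list. CpG content did not order the genes: Lmx1b had the most CpG within 500 bp of its start, 104, and Meox2 had 36. Tbx5, which also had no region at its start, had the fewest, 8. The median was 67 over the 8 genes and 47 over all genes. Of the 4 members with at least 75 CpG, Pitx1, Isl1, Lbx1 and Lmx1b, all but Lmx1b had a region at a start, and of the 5466 genes with as many 91.3% had one.

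**Figure D2:**
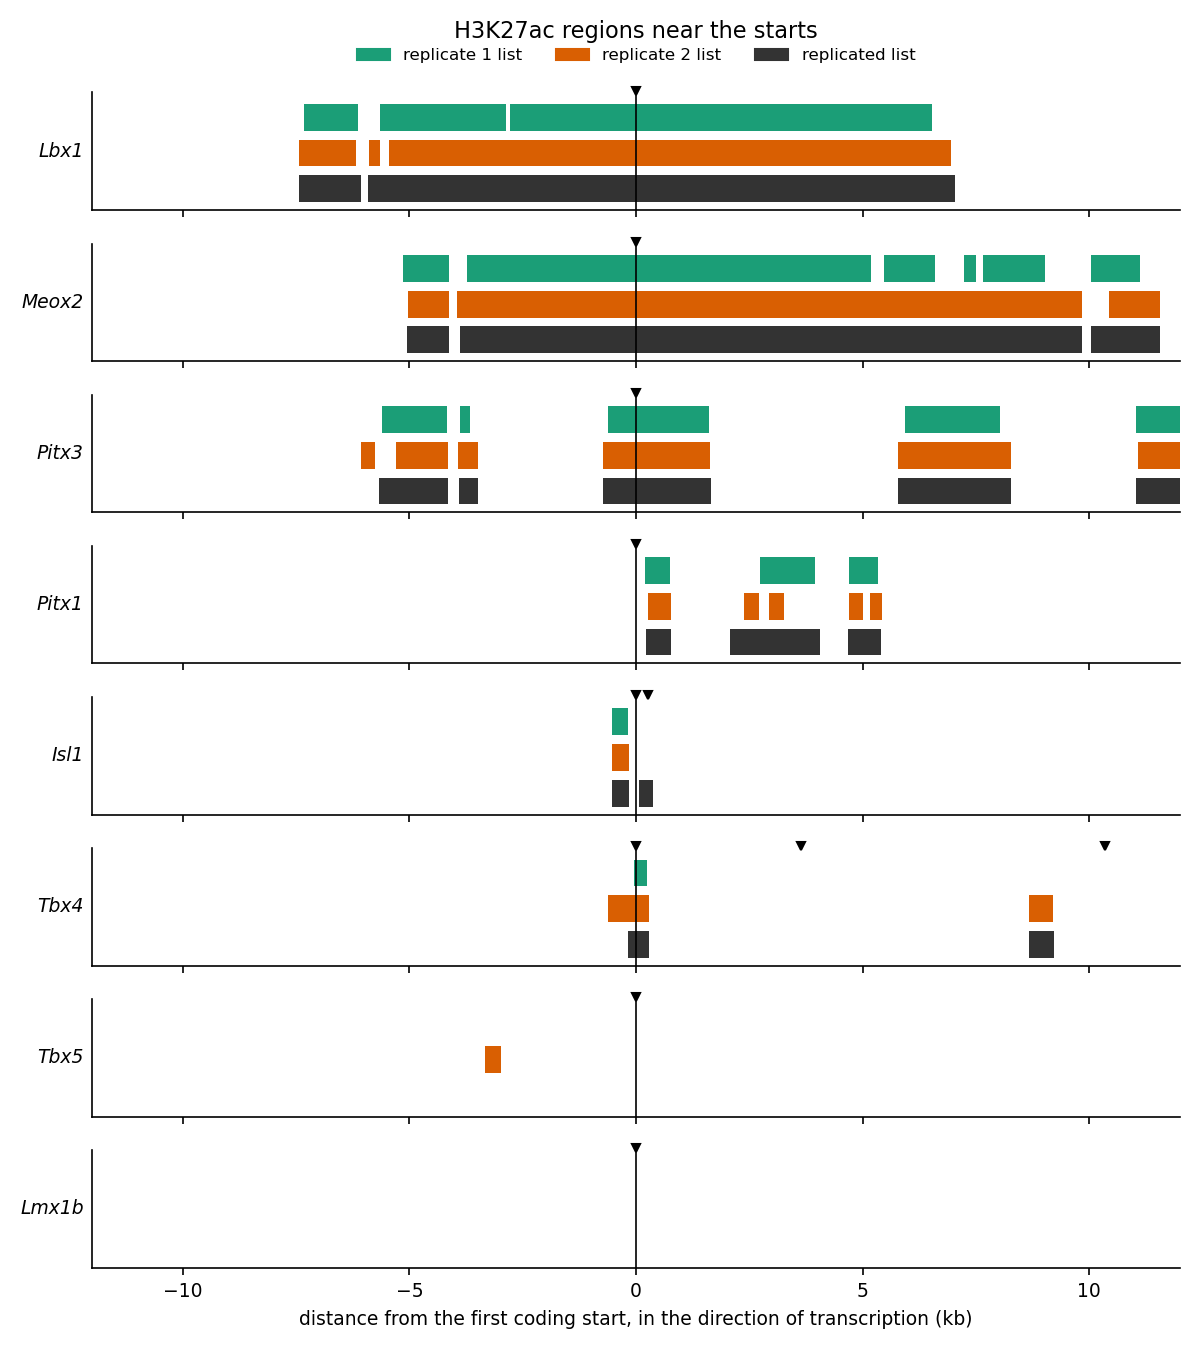
Regions of the replicate 1, replicate 2 and replicated lists near the first coding start of each gene, against distance from that start in kb, with upstream on the left and triangles at coding starts. Lbx1 and Meox2 are covered to both sides in every list, the Pitx1 regions all lie after the start, and Lmx1b is empty.

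Relatives of 6 of the 8 genes behaved in several ways in the same muscle. The 6 paralogues taken were Tbx2, Tbx3, Isl2, Lbx2, Meox1 and Lmx1a, and 5 of the 6 had a region at a start, with 4025.5 bp as the median length, against 61.2% and 1469.5 bp over all genes. Tbx4 had 559 bp and Tbx5 had 0 bp in the replicated list, against 7795 bp for Tbx2 and 7910 bp for Tbx3, T-box repressors that are their neighbours on the chromosome. Tbx2 had 7432 bp in replicate 1 and 7622 bp in replicate 2, and Tbx3 had 7105 and 7975 bp. Neither overlapped with Tbx4 or Tbx5 in any replicate. In the Lbx and Meox pairs the order was the other way. Lbx1 was near the ceiling, while Lbx2 had 1010 and 1446 bp, and Meox2 was above Meox1, which had 5900 and 7778 bp. Lmx1b had 0 bp, against 1036 and 1173 bp for Lmx1a. Isl1 had its narrow regions, and Isl2 had 0 bp in both replicates.

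**Figure D3:**
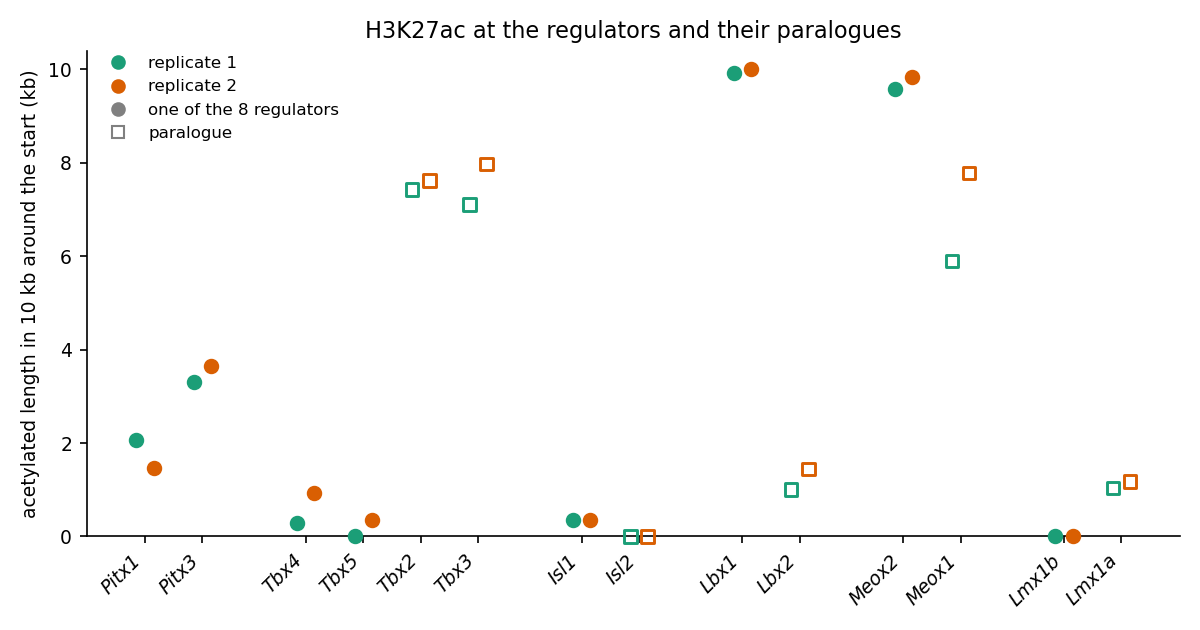
Acetylated length (kb) in replicate 1 and replicate 2 in the 10000 bp around the start of the 8 genes (filled circles) and 6 paralogues (open squares), grouped by family. Tbx2 and Tbx3 sit far above Tbx4 and Tbx5, while Lbx1 and Meox2 lie above their paralogues.

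Distal regions are shown next by 3 sequences, the summits of the strongest intergenic region of Lbx1, of Meox2 and of Pitx1. Each run is the 300 bases around the summit in the replicated list, read from the plus strand of mm10, 5′ to 3′. Capitals mark matches, on either strand, to short motifs of transcription factors that were searched.
Lbx1, chr19:45301712-45302011, plus strand: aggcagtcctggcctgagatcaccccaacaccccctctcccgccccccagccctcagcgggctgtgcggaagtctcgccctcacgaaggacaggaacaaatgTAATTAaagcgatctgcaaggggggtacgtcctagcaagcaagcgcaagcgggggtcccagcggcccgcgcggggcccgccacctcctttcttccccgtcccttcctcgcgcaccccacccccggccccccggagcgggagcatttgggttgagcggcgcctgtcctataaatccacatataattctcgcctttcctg
Meox2, chr12:37014930-37015229, plus strand: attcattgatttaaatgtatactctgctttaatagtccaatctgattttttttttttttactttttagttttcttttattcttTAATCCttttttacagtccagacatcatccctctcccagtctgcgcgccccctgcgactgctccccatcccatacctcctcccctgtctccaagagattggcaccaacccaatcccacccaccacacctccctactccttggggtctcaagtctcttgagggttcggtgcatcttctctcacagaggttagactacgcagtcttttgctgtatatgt
Pitx1, chr13:55850963-55851262, plus strand: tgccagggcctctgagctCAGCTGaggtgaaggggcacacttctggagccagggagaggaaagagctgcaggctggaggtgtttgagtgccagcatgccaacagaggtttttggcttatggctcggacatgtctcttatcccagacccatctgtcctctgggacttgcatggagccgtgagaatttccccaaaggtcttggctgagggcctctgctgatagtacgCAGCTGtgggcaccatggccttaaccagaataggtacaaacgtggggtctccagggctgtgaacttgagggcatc
The Lbx1 window held TAATTA, the core bound by many homeodomain factors, the Meox2 window TAATCC, the core bound by Pitx factors, and the Pitx1 window held CAGCTG, an E-box bound by myogenic factors, at 2 places. Such matches are common. Within 150 bp of the summits of the 167 regions around the 8 genes, CAGCTG was present in 19.2%, against 19.8% of all regions, TAATTA in 5.39% against 5.24%, and TAATCC in 9.58% against 9.36%. The T-box core TCACACC was present in 2.99% against 4.05%, the TEAD core GGAATG in 9.58% against 15.7%, the MEIS core TGACAG in 18% against 22% and the AP-1 site TGACTCA in 5.99% against 5.5%. All motifs were searched on both strands. TAATTA and TAATCC begin with the same 4 letters, and so do TGACAG and TGACTCA. The gap was widest for GGAATG, none of these differences was tested, and a match is not evidence of a bound factor.

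Each locus was taken as the gene with 200 kb to each side, and none of the 8 overlapped. Together they held 167 regions that covered 7.31% of their length (replicated list), 5.44% in replicate 1 and 7.08% in replicate 2. Of the 167 regions, 115 (68.9%) were shared with both replicates, against 63.3% of all regions. Only 7 lay at a start of the named genes and 10 inside them, 50 were intergenic, 27 lay at the starts of other genes and 73 inside other genes. The median locus was covered over 7.64%, against 6.71% over all genes, and held 24 regions, against 23. Near-average totals hid a wide spread, from 0.167% at Isl1 to 14.5% at Lbx1.

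The Lbx1 locus was covered over 11.4% in replicate 1 and 14.6% in replicate 2, and Pitx3 over 9.72% and 11.5%. Meox2 had 7.35% and 10.7%, and Tbx4 had 7.5% and 9.06%. The range of Meox2 overlapped with those of Pitx3 and of Tbx4, and the range of Pitx3 with that of Lbx1. Within each replicate, however, Lbx1 was above Pitx3 and Pitx3 above Meox2, while Meox2 and Tbx4 changed places. Lmx1b had 3.33% and 5.45%, Pitx1 2.54% and 3.11%, Tbx5 1.98% and 2.38%, and Isl1 0.086% and 0.0875%. Replicate 2, with the longer list, was the higher in all 8.

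**Figure D4:**
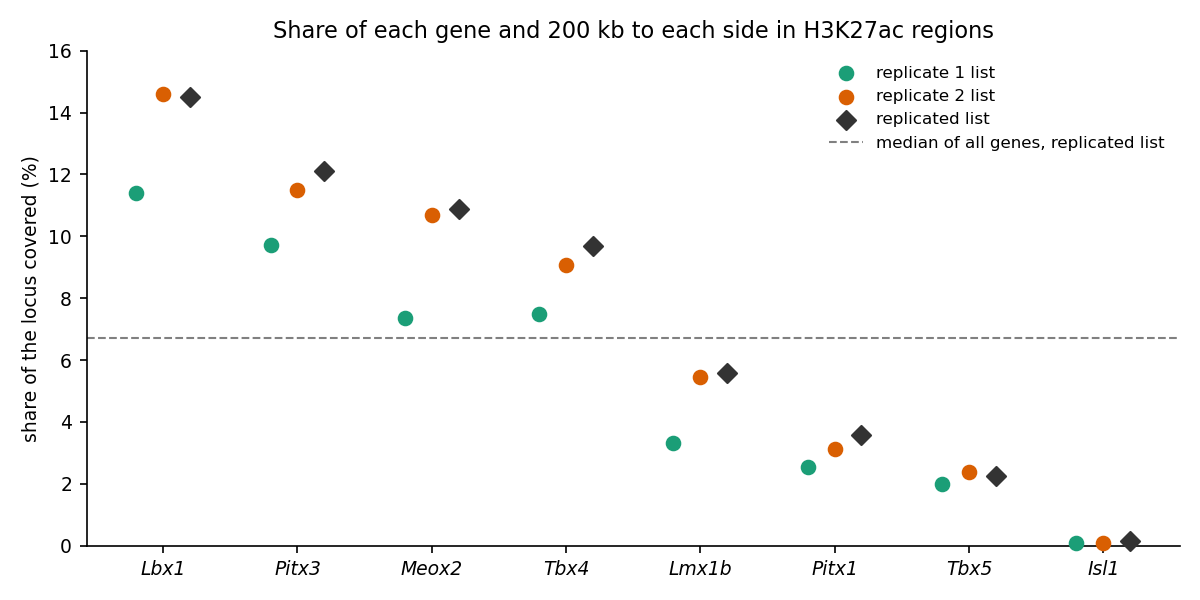
Share (%) of each gene with 200 kb to each side that lay in regions of the replicate 1, replicate 2 and replicated lists, with the median over all genes in the replicated list as a dashed line. Lbx1, Pitx3, Meox2 and Tbx4 lie above the line in all 3 lists, Lmx1b, Pitx1, Tbx5 and Isl1 below it.

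Around Lbx1 15 of 32 regions were intergenic. A cluster lay upstream, between 63.5 and 81.7 kb before the start, in the stretch between Lbx1 and Btrc, a gene of ubiquitin ligase function. Its strongest region, chr19:45300761-45303676, had a signal value of 45.02 at the 97.8th percentile, close to the 46.43 of the Lbx1 start. It had 34.1 in replicate 1 and 43.27 in replicate 2. The next were chr19:45305779-45309568 with 23.59 and chr19:45309697-45311854 with 19.04, both shared with both replicates. The latter lay within 1000 bp of a start of the noncoding gene Gm28578. Which gene such regions act on was not measured. On the other side, the region inside Sfxn3 at 178 kb, with 33.56, lay among starts of other genes and within 1000 bp of a start of the noncoding gene AC132957.1.

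Around Meox2 18 of 32 regions were intergenic and 5 lay inside the gene, while Agmo was the sole other gene with a start in the window. All 18 intergenic regions were upstream, out to 190 kb. The strongest was chr12:37014656-37016648, 93.5 kb before the start, with 16.33 (12.52 in replicate 1, 17.44 in replicate 2). It was followed by chr12:36932477-36934159 at 175 kb with 14.28 and chr12:36945370-36947682 at 162 kb with 13.04. None of these came near the 27.68 of the Meox2 start, unlike at Lbx1.

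Around Pitx1, and around Tbx4 (below), the order was turned round. The region at chr13:55850910-55851451, 19.7 kb before the coding start, had a signal value of 14.15 at the 82.7th percentile, against 4.64 for the start. It was the higher in replicate 1, with 9.47 against 4.5, and in replicate 2, with 16.11 against 4.03. The next was a region 146 kb upstream with 7. The strongest regions of the Pitx1 window lay at starts of other genes, the highest at B230219D22Rik with 44.09. Pitx3 shared its window with 12 other genes that had a start there, 11 of them with a region, and 13 of its 32 regions lay at those starts. Its named distal region lay inside Gbf1, 38.3 kb upstream, with 19.

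In the Tbx4 window 20 of 29 regions lay inside another gene, and 12.35 was the signal value at the start of Tbx2. The strongest away from coding starts lay inside Bcas3, 126 kb upstream, with 12.51, against 3.74 for the Tbx4 start. It was the higher in replicate 1, with 6.92 against 3.79, and in replicate 2, with 14.29 against 3.58. This region was within 1000 bp of the start of Mir5110, a noncoding gene. The next lay in the stretch between Tbx2 and Tbx4, 41.9 kb upstream, with 11.17. The third, again inside Bcas3, was 147 kb upstream with 9.29. The longest empty stretches were in the windows of Tbx5, Lmx1b and Isl1. In the Tbx5 window all 5 regions lay at or near Tbx3, the strongest 7911 bp wide with 29.21. The next, intergenic and 149 kb before the Tbx5 start, had 7.47, and the longest stretch with no region was 399 kb. In the Lmx1b window the strongest of 19 regions were at the starts of Zbtb34 (46.3), Zbtb43 (45.79) and Ralgps1 (40.39). Away from starts the strongest, with 10.3, lay inside Zbtb43, and the longest empty stretch, 284 kb, took in the whole of Lmx1b. The Isl1 window held its 2 start regions and nothing else. Beyond it the nearest regions were 1090 kb to the left and 395 kb to the right of those at its start, and 0 other coding genes had a start in the window.

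**Figure D5:**
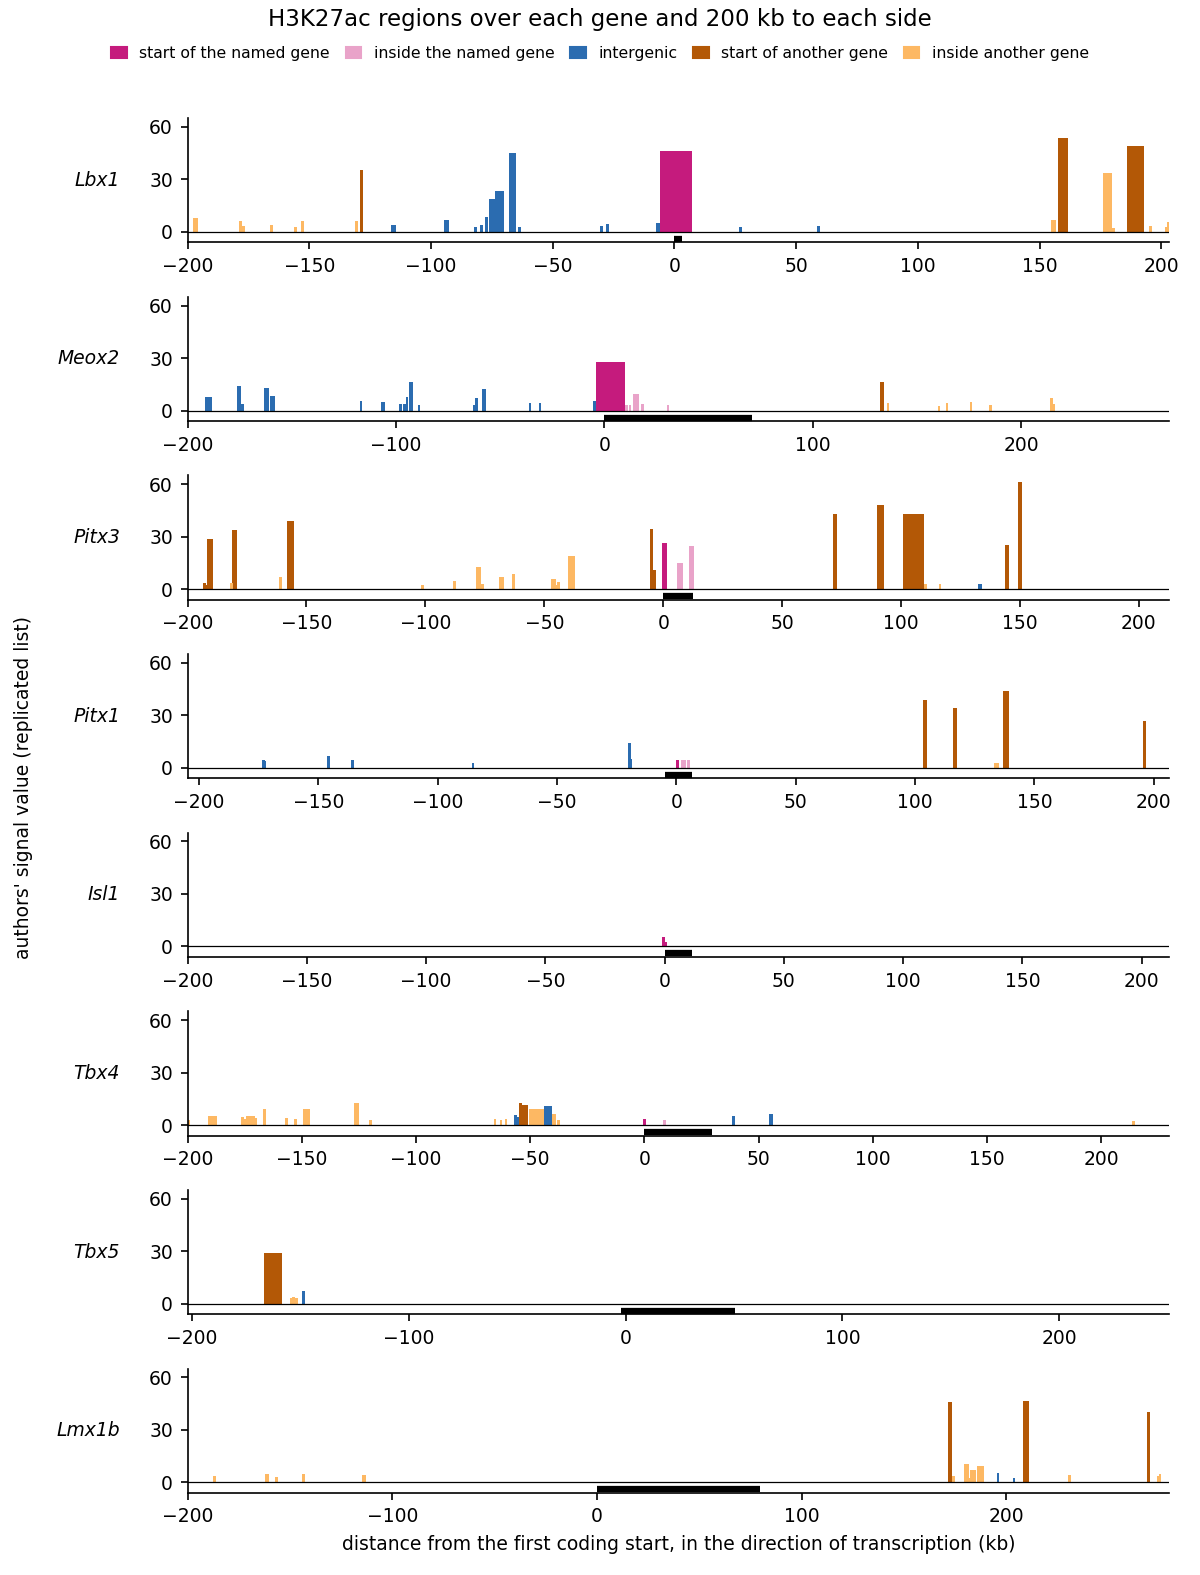
Regions of the replicated list over each gene and 200 kb to each side, by distance from the first coding start in kb and the authors' signal value, coloured by place, with a black bar for the named gene (narrow regions were widened to stay visible). The Lbx1 panel has tall intergenic bars upstream, the highest at 45.02, and the Isl1 panel has the 2 bars at its start alone.

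Other genes of the same programmes are set beside all genes, of which 61.2% had a region at a start and whose median acetylated length was 1469.5 bp. Of 32 limb patterning genes 24 had a region at a start (21 in replicate 1, 23 in replicate 2), and their median acetylated length was 2587.5 bp. Among these were Tbx15 with 9649 bp, Prrx1, a limb mesenchyme gene, with 6159 bp, and En1, a gene of the ventral limb, with 6227 bp. Shh, the signal of the posterior limb bud, and Wnt7a, the dorsal signal, had 0. Of 20 genes of muscle precursor migration 17 had one (15 in replicate 1, 17 in replicate 2), with a median of 3379.5 bp. Eya1, a transcriptional cofactor of muscle precursors, had 7036 bp, Met, the receptor for the migration signal Hgf, 4420 bp, and Pax3, which acts upstream of Lbx1 in the somite, 0. All 4 myogenic regulatory factors had one, with a median of 6615 bp. Of 39 Hox genes 29 did, with a median of 3647 bp, Hoxc10, a hindlimb gene, at 10000 bp and Hoxd13 at 0. The patterning, migration and Hox genes had medians of 62, 58.5 and 62 CpG within 500 bp of the start, against 47 over all genes, and the share with a region is higher among CpG-rich genes (91.3%, above). The part of CpG content in these counts was not tested. Over the gene and 200 kb to each side, the median locus of the patterning genes was covered over 3.39% and that of the migration genes over 5.92%. Both were below the 6.71% over all genes, while the Hox genes had 16.2% and the myogenic regulatory factors 11.6%. The Hox genes lie in clusters, so their windows overlap and neighbours can share a region. Hoxa7, Hoxa9 and Hoxa10 each had 28.52 as the highest signal value at a start. The count and medians of the Hox genes are therefore not over separate loci.

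By the summed difference in acetylated length over both replicates, among 51 genes of the patterning and migration lists, Lbx1 was most like Hoxc10 (5 bp), and so was Meox2 (503 bp). Lbx1 and Hoxc10 both lie at the ceiling of the measure. Pitx3 was most like Twist1 (167 bp) and Met (593 bp), and Pitx1 most like Msx1 (724 bp) and Tbx18 (729 bp). Tbx4 was most like Hgf (346 bp) and Fgfr4 (457 bp). Tbx5 and Isl1 were most like Alx4 (66 and 425 bp) and Fgf8 (79 and 438 bp). Lmx1b shared its 0 bp with 11 of the 51.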

How the data were processed

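H3K27ac peaks of 2 biological replicates were analysed from 4 peak lists that the authors deposited on mm10: replicate 1, replicate 2, both pooled, and the replicated list. The deposited signal value of a peak is the authors' own, and so are its p-value and q-value as −log10. Aligner, peak caller and settings were not given in the sources used here. Controls were not analysed here. Signal values were compared only within a list.

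Genes were the protein-coding genes of GENCODE release M21, basic set, on X and the 19 autosomes (41136 transcript starts), with 1 gene per symbol. Coordinates count from 1. Counting was done in Python 3.11.15 with numpy 2.4.6, pandas 2.3.3 and pysam 0.24.0 and tested on simulated peaks. The members, gene lists and paralogues were chosen with earlier results of these data known. Named regions are the 3 strongest of each locus away from coding starts. There was 1 group, so no test was made, and values are given for both replicates. Alternatives were other window sizes, starts, overlaps, lists and a minimum −log10 q of 5. Some genes of the lists are counted in them but not reported by name here.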

Additional observations from a re-analysis of the deposited data

How the results depend on the processing

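The count of 6 genes with a region at a start stayed at 6 with 500 or 2000 bp to each side, in the pooled list, in either replicate's list, at a −log10 q of at least 5 and, an alternative chosen after seeing the data, with the starts of all transcripts. It was 5 from the 5′ end of the gene model, where Pitx1 was lost. The median acetylated length of 1773.5 bp became 834 bp with 2500 bp to each side, 572.5 bp from the 5′ end, 1824 bp in the pooled list and 1709.5 bp at the stricter q, and 1192 to 1212.5 bp with 1 replicate left out; over all genes the first 2 settings gave 1340 and 1383 bp, above the members. The SD between the medians of the replicates was 14.5 bp, so small shifts exceed it. It does not give the spread of single genes, whose SDs ran from 0 bp at Lmx1b to 448 bp at Tbx4. The share of the 8 loci covered was 6.69% to 8.34% with flanks of 50 to 500 kb, 5.38% without regions at starts of other genes, and 5.44% to 7.08% with 1 replicate left out. The 167 regions fell to 81 with flanks of 100 kb and ranged over 148 to 177 with 1 replicate left out. The share of them in both replicates was 53.3% when at least 50% of both regions had to overlap and 79.7% at the stricter q. No paired analysis was possible because the single group has no second group to pair with. Depth is unknown, and 2 pooled replicates give only a rough spread.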
